A study of Mus musculus with 4 samples.

Results

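The Nrf2 pathway antioxidant genes were taken as 10 genes chosen by symbol: the transcription factor Nrf2 (Nfe2l2), its inhibitor Keap1, and the target genes Nqo1, Gclc, Gclm, Hmox1, Txnrd1, Srxn1, Gsr and Ephx1. All 10 were measured, each by 1 probe set, among 19938 genes with a single symbol, and all 10 were among the 11963 genes whose mean over the arrays passed the filter on low values. RNA of mouse liver was hybridised to 4 arrays (Affymetrix Mouse Gene 1.0 ST), 1 for each of 4 groups. The groups were wild type mice (labelled WT SIRT6) at 2 months of age, wild type mice at 8 months, mice labelled SIRT6Co/Co ;Alb-Cre at 2 months and the same genotype at 8 months. The latter carry a conditional Sirt6 allele and an albumin-driven Cre recombinase, which directs recombination to hepatocytes. The cells in which recombination took place were not measured here. Each array held RNA combined from 3 pairs of mice. The sources used here do not give strain, sex, feeding state or the make-up of the pairs.

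Nrf2 is a basic leucine zipper factor that is made continuously and degraded as fast as it is made, because Keap1 holds it on a Cul3 ubiquitin ligase. Oxidants and electrophiles modify cysteines of Keap1, Nrf2 then accumulates, pairs with small Maf proteins and binds antioxidant response elements near its targets. In liver these targets make glutathione, reduce thioredoxin and peroxiredoxins, break down haem and detoxify quinones and epoxides. Much of the control of Nrf2 lies in protein stability, which an array does not measure.

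Values are log2 signals made by the authors with RMA. With 1 array per group, a difference at a single age is a value with no test. The test was a limma model with genotype and age as additive terms over the 4 arrays. It was fitted to all 11963 genes with Benjamini-Hochberg adjustment, and rose or fell is written only of genes with an adjusted p under 0.05. A single residual degree of freedom is left for each gene, so the p-values do not measure how animals, or pools of one group, vary. In whole liver, a change in the number of cells of a type and a change in RNA per cell cannot be told apart.

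The Sirt6 probe set did not set the genotypes apart. At 2 and 8 months it read 4.55 and 4.50 in WT against 4.54 and 4.46 in KO, with a limma adjusted p of 0.92. Whether it covers the deleted part is not given, so the genotypes are called KO-labelled and WT-labelled, and every direction rests on those labels. The 10 hepatocyte markers measured, among them albumin, were high on every array, with a log2 summed level of 15.1 to 15.2. This level adds linear signals, so the brightest markers weigh most in it. Of the 10 markers, 0 rose and 1 fell (Fga), where 6.81% of all genes rose and 4.26% fell. The difference was above 0 for 7 at 2 months and 2 at 8 months, against 52.3% and 49.8% of all genes.

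Promoter sequences from RefSeq (GRCm38.p6) were held for 7 of the 10 genes, at 9 start sites. Those with a match to either of 2 motifs are shown. The 250 bases before each start were searched on either strand for the core of the antioxidant response element, TGACNNNGC, and for the AP-1 site, TGANTCA, which Fos and Jun dimers bind. The motifs can overlap, since TGACTCAGC holds both. Capitals mark the matches in the sequences, which run 5′ to 3′ on the gene's own strand, and position -1 is the base before the start.
Srxn1, chr2:152105402-152105505, plus strand: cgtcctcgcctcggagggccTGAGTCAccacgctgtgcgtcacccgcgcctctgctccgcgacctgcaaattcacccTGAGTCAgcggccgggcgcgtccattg
Gclm, chr3:122245403-122245451, plus strand: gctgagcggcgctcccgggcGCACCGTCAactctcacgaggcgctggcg
Txnrd1, chr10:82859094-82859142, plus strand: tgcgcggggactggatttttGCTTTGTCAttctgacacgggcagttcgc
Nfe2l2, chr2:75704875-75704913, minus strand: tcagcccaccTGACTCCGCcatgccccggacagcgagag
The element core was found for 3 genes: Nfe2l2 at -240 to -232, Gclm at -134 to -126 and, at the second of its 3 listed starts, Txnrd1 at -92 to -84. The Gclm and Txnrd1 matches lie on the opposite strand. Of all 32851 promoters of this length, 1 for each start, 10.2% held the core, against 3 of these 9 starts. Srxn1 held no match to the core as searched, but 2 AP-1 sites, at -102 to -96 and at -45 to -39. Of all promoters, 6.75% held at least 1 such site and 0.338% at least 2. The second Srxn1 site with the 2 bases after it reads TGAGTCAGC, which departs from TGACNNNGC only by G in place of C after TGA. Cores with G there were not searched for, so Srxn1 is not shown to lack an element. No match was found before the starts of Keap1, Nqo1 and Ephx1, which says only that these letters are not in this window. Gclc, Hmox1 and Gsr were not analysed here for sequence.

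Of the 10 genes, 2 rose in the KO-labelled arrays, 0 fell and 8 did not pass the test. The genes that rose were Srxn1 and Gclc, each by less than 1.5-fold. Over all genes tested, 11.1% passed, 6.81% with a higher and 4.26% with a lower KO-labelled level, and 2 of 10 is read against that background with no test of the list. Without adjustment, 4 of the 10 genes had a p under 0.05 against 25% of all genes. The median genotype effect was 0.21 log2 units over the 10 genes and 0.00 over all genes. At 2 months the median difference was 0.26 for the 10 genes and 0.01 for all genes, and at 8 months it was 0.15 and 0.00.

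Nfe2l2, the transcription factor itself, read 7.14 and 7.20 on the WT-labelled arrays at 2 and 8 months and 7.48 and 7.35 on the KO-labelled arrays. Both KO-labelled arrays lay above both WT-labelled ones, and the difference was 0.35 at 2 months and 0.15 at 8 months. Its additive effect was 0.25 (SE 0.09, 2 arrays per genotype), with a limma adjusted p of 0.10. Keap1, the adaptor that presents Nrf2 to the ligase, read 6.65 and 6.48 on the WT-labelled and 6.68 and 6.66 on the KO-labelled arrays. The KO-labelled arrays were again the higher ones, but 3 of the 4 Keap1 values lay within a few hundredths and the WT-labelled array at 8 months stood lower. Its additive effect was 0.10 (SE 0.10, adjusted p 0.58 in limma), and its difference at 2 months, 0.03, turned to -0.07 when the arrays were quantile normalized again and to -0.05 under cyclic loess.

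Glutathione synthesis starts with glutamate-cysteine ligase, whose catalytic subunit is Gclc and whose modifier subunit is Gclm. Gclc read 9.59 and 9.66 on the WT-labelled arrays at 2 and 8 months and 9.98 and 9.89 on the KO-labelled arrays. The genotypes did not overlap, and the KO-labelled level was 1.30-fold that of WT at 2 months and 1.17-fold at 8 months. Gclc rose by 0.31 log2 units (SE 0.08, 95% interval 0.14 to 0.48), with a limma adjusted p of 0.024. Its partner Gclm read 8.71 and 8.73 on the WT-labelled arrays and 8.94 and 8.67 on the KO-labelled arrays. Here the KO-labelled array was the highest at 2 months and the lowest of all at 8 months. The differences were 0.23 and -0.06 and the additive effect 0.09 (SE 0.09, adjusted p 0.60 in limma). Gsr, the reductase that returns oxidised glutathione to its reduced form, was the only one of the 10 genes whose KO-labelled values lay below both WT-labelled ones. It read 7.85 and 7.87 in WT and 7.82 and 7.75 in the KO-labelled arrays, an additive effect of -0.08 (SE 0.08, adjusted p 0.64 in limma). Its range over the 4 arrays, 0.12, was the narrowest of the 10.

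In the thioredoxin branch, Srxn1 encodes sulfiredoxin, which repairs peroxiredoxins that peroxide has over-oxidised. It read 6.47 and 6.53 on the WT-labelled arrays at 2 and 8 months and 6.92 and 6.84 on the KO-labelled arrays. The 4 values fell into separate genotype levels with little difference by age, and the KO-labelled level was 1.36-fold that of WT at 2 months and 1.24-fold at 8 months. Srxn1 rose by 0.38 log2 units (SE 0.10, 95% interval 0.17 to 0.58), with a limma adjusted p of 0.023, the largest additive effect of the 10 genes. The calls of Srxn1 and Gclc were both lost without the filter on low values (adjusted p 0.075 and 0.074 in limma) and without the intensity trend of the variance (adjusted p 0.077 and 0.13). Txnrd1, the cytosolic thioredoxin reductase, read 7.21 on each WT-labelled array and 7.47 and 7.40 on the KO-labelled arrays. The genotypes did not overlap, and the effect of 0.23 (SE 0.09) had a limma adjusted p of 0.12.

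**Figure D1:**
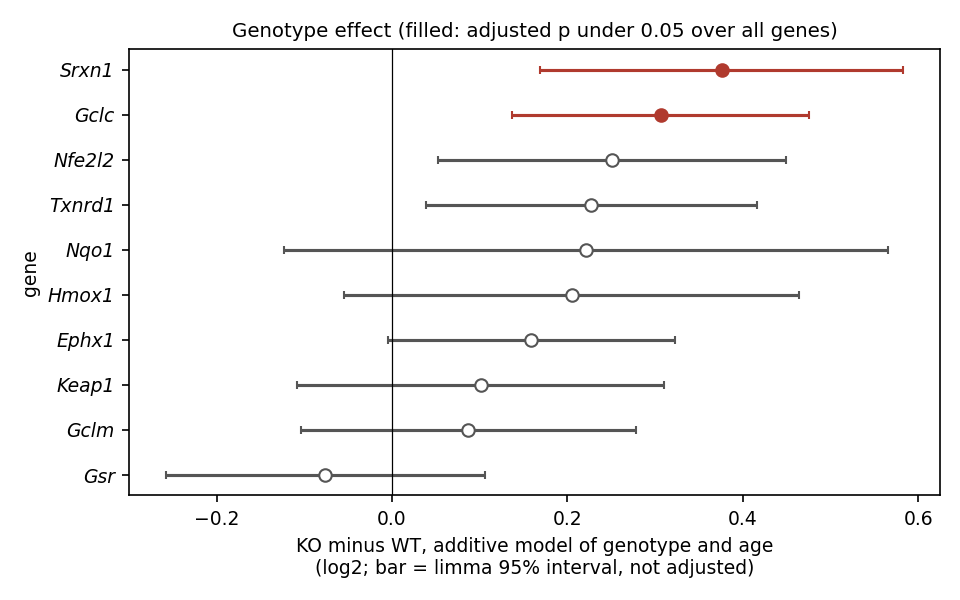
Additive genotype effect of the 10 genes in log2 units, with points for the limma estimate over 4 arrays, bars for its 95% interval and filled points for an adjusted p under 0.05. Srxn1 at 0.38 and Gclc at 0.31 are filled, and Gsr at -0.08 is the one gene below 0.

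Among the detoxifying enzymes, Nqo1, the quinone reductase often used as the reference target of Nrf2, differed most between the ages. It read 3.65 and 3.90 on the WT-labelled arrays at 2 and 8 months and 4.18 and 3.81 on the KO-labelled arrays. The KO-labelled array was the highest at 2 months, by 0.53, while at 8 months it lay below WT, with a difference of -0.09. Its mean of 3.89 lay closest of the 10 to the filter limit of 3.34, and its SE, 0.16, was the widest. Its additive effect was 0.22, with a limma adjusted p of 0.44. Ephx1, microsomal epoxide hydrolase, read 10.23 and 10.24 in WT and 10.45 and 10.35 in the KO-labelled arrays. The genotypes did not overlap, but the effect of 0.16 (SE 0.08) had a limma adjusted p of 0.21.

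Hmox1 encodes the inducible haem oxygenase, which in liver is also a gene of Kupffer cells, the resident macrophages that take up aged red cells. It read 5.11 and 4.94 on the WT-labelled arrays at 2 and 8 months and 5.36 and 5.10 on the KO-labelled arrays. The KO-labelled array was higher at each age, by 0.25 and 0.15, but the genotypes overlapped because the KO-labelled array at 8 months did not exceed the WT-labelled one at 2 months. Its additive effect was 0.20 (SE 0.12, adjusted p 0.32 in limma). Of 13 tested Kupffer cell and macrophage markers, 3 rose, 1 fell and 9 did not pass, where 6.81% of all genes rose and 4.26% fell. The log2 summed level of 15 measured genes was 10.3 and 10.1 on the WT-labelled and 10.4 and 10.3 on the KO-labelled arrays at 2 and 8 months. Cd5l, Vsig4 and Timd4 rose, Lyz2 fell, and Clec4f, a defining Kupffer cell marker, differed by -0.04 at 2 months and 0.06 at 8 months. Of the 13 markers, 10 were above 0 at 2 months and 12 at 8 months, against 52.3% and 49.8% of all genes. Of 5 tested erythroid markers, 2 rose (Alas2 and Car1), and the others did not pass: Slc4a1 was at 0.15 and 0.28 at the 2 ages, Klf1 at -0.43 and -0.38 and Ermap at -0.13 and -0.15. The erythroid summed level was 7.92 and 7.81 in WT and 8.50 and 8.38 on the KO-labelled arrays. It adds linear signals, so Car1 and Alas2, the brightest of these genes, weigh most in it. Of the other cell types, 1 of 10 endothelial, 1 of 11 stellate cell and 0 of 3 cholangiocyte and 2 leukocyte markers rose, and 5 stellate cell markers fell. The part of these cells in the Hmox1 values was not tested.

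**Figure D2:**
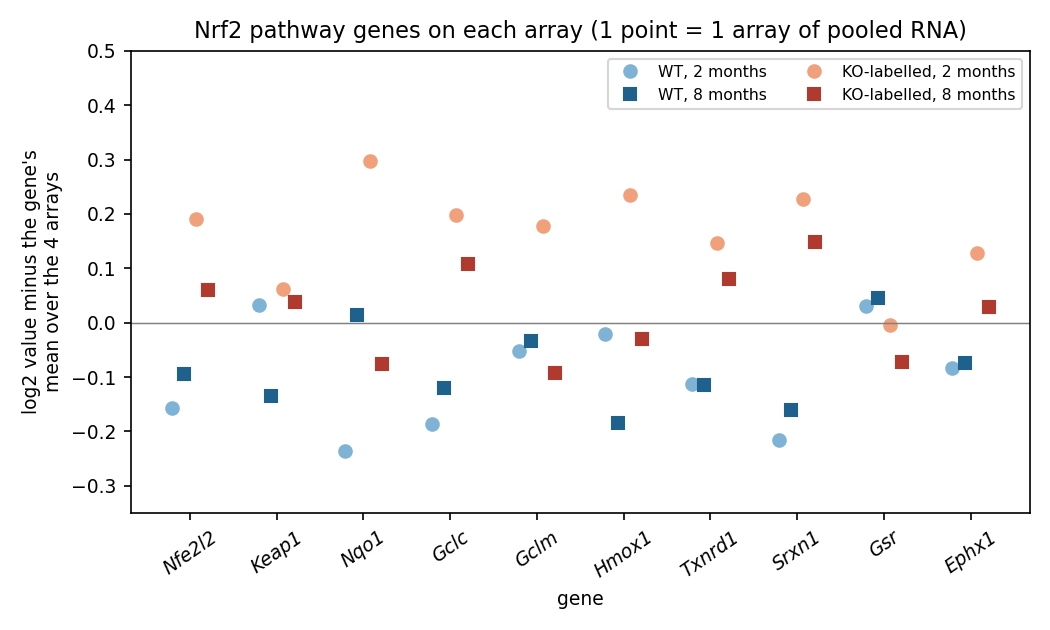
Log2 value of each gene minus its own mean over the 4 arrays, 1 point per array of pooled RNA, with circles for 2 months, squares for 8 months, blue for WT and orange to red for KO-labelled arrays. The KO-labelled array at 2 months is the highest point for 9 of the 10 genes, all but Gsr.

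Across the 10 genes, the KO-labelled array at 2 months held the highest value for 9, the exception being Gsr. Over all genes tested this array was the highest for 35.3%. The genotype difference was above 0 for 9 of the 10 genes at 2 months, where 52.3% of all genes were above 0, and for 7 of the 10 at 8 months, against 49.8%. The 3 genes below 0 at 8 months were Gsr, Nqo1 and Gclm. At both ages 7 of the 10 were above 0, against 34.4% of all genes, and 2 (Nqo1 and Gclm) had opposite signs, against 33.1%. Both KO-labelled arrays exceeded both WT-labelled arrays for 6 of the 10 genes, against 29.1% of all genes. Gsr was the gene of the 10 with both KO-labelled arrays below both WT-labelled ones, an order that 25.7% of all genes had. The 6 were Nfe2l2, Keap1, Gclc, Txnrd1, Srxn1 and Ephx1.

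None of the 10 genes was 1.5-fold apart at either age, where 3.98% of all genes were that much higher and 2.39% that much lower at 2 months, and 2.41% and 1.93% at 8 months. At 1.2-fold, 4 genes were higher at 2 months (Nqo1, Srxn1, Gclc and Nfe2l2) against 18.1% of all genes, and 0 were lower, against 15.9%. At 8 months 1 was higher at 1.2-fold (Srxn1), against 12%, and 0 were lower, against 11%. The level that set the KO-labelled array at 2 months apart moved with the scaling. That array had the highest upper quartile of signal, 5.59 against 5.53 to 5.54 on the other arrays, and the lowest median, 3.52. When all arrays were quantile normalized again, 7 of the 10 genes were highest there, against 24.8% of all genes, and the median difference of the 10 genes at 2 months was 0.18 instead of 0.26. Median centring gave 10 of 10 against 45%. Under quantile normalization, median centring and cyclic loess alike, 7 of the 10 differences at 8 months stayed above 0.

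**Figure D3:**
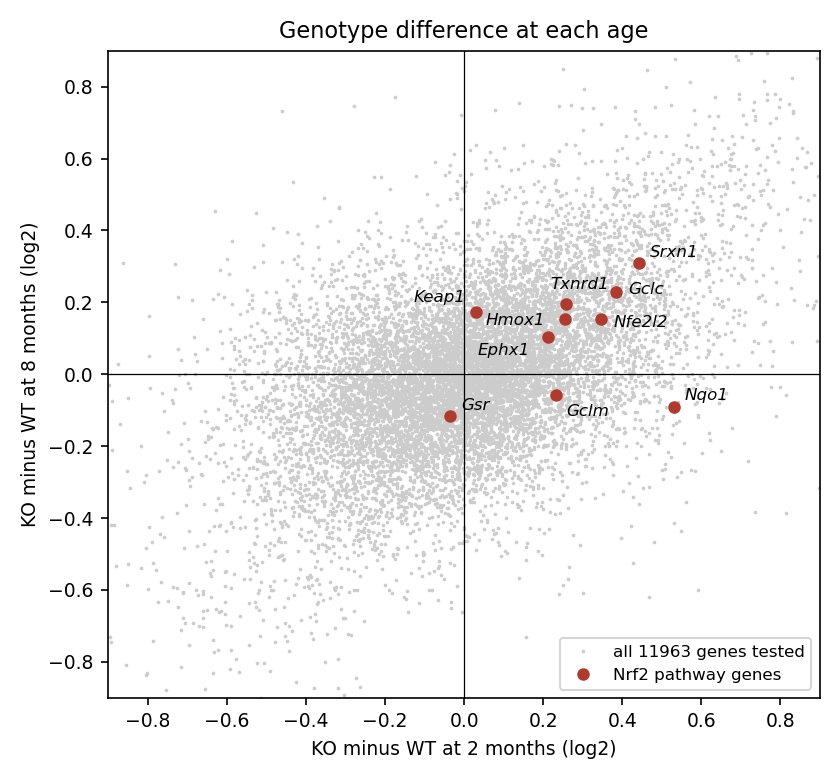
KO minus WT at 2 months (horizontal) and at 8 months (vertical) in log2 units, 1 array per group, for the 10 named genes and for all 11963 genes in grey; 285 genes beyond 0.9 on an axis are not drawn. Of the 10 genes, 7 lie above 0 on both axes, Nqo1 and Gclm lie above 0 at 2 months only, and Gsr is below 0 on both.

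Age was compared in the same fit. None of the 10 genes passed for 8 minus 2 months in the additive limma model, and none had an unadjusted p under 0.05, against 3.6% of all genes unadjusted and 0.00836% after adjustment. None was 1.5-fold apart by age, where 0.652% of all genes were in each genotype. In the KO-labelled arrays all 10 genes were lower at 8 than at 2 months, with differences from -0.02 for Keap1 to -0.37 for Nqo1, where 57.8% of all genes were lower. Of these, 2 were at least 1.2-fold lower (Nqo1 and Gclm), against 7.65% of all genes. Under quantile normalization or cyclic loess, 7 of 10 remained below 0, and Keap1, Txnrd1 and Gsr turned to values between 0.00 and 0.05. In the WT-labelled arrays 7 of 10 were above 0, from 0.01 for Ephx1 and Gsr to 0.25 for Nqo1, against 50.5% of all genes. Renewed quantile normalization and cyclic loess each left 4 of 10 above 0, with Gclm, Gsr and Ephx1 below 0, against 46.1% and 47.9% of all genes. Median centring left 6, against 47% of all genes. Hmox1 was lower at 8 months in each genotype, with differences of -0.16 in WT and -0.26 on the KO-labelled arrays, and so was Keap1, with -0.17 and -0.02. The age and genotype differences share arrays and are not independent of each other.

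Genes that control Nrf2 were read from a list of 18, of which 16 were tested. In this list 2 rose, 0 fell and 14 did not pass, where 6.81% of all genes rose and 4.26% fell. At an unadjusted p under 0.05 in limma, 4 were higher and 1 was lower, where 1741 and 1246 of all 11963 genes were. The median genotype effect of the list was -0.04. Maff, a small Maf protein that pairs with Nrf2 and is itself induced by stress, read 3.37 and 3.54 on the WT-labelled arrays at 2 and 8 months and 4.80 and 4.32 on the KO-labelled arrays. It rose by 1.11 (SE 0.16, adjusted p 0.00064 in limma), although its WT signal lay close to the filter limit. Syvn1, a ubiquitin ligase of the endoplasmic reticulum, read 7.19 and 7.17 in WT and 7.66 and 7.79 on the KO-labelled arrays and rose by 0.54 (SE 0.09, adjusted p 0.0014). The lowest of the list were Mafg, another small Maf, at -0.41 and -0.17 at the 2 ages, and the kinase Fyn at -0.30 and -0.06, and neither passed.

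Among 36 tested genes of a list of other Nrf2 targets in liver, 14 rose, 4 fell and 18 did not pass. Over all genes tested, 6.81% rose and 4.26% fell. The median effect of the list was 0.21, as for the 10 genes. Both lists were chosen with earlier results of these data known. The count that rose was 8 without the intensity trend, and the count that fell was 2 without the filter on low values. Gstm3, a mu-class glutathione transferase whose close relatives its probes may not fully separate, read 8.08 and 8.24 on the WT-labelled arrays and 9.56 and 9.49 on the KO-labelled arrays. It rose by 1.37 (SE 0.08, adjusted p 3.5e-07 in limma), and Gstm4, Gstm2 and Gstm1 rose by 0.52, 0.55 and 0.33. Aldh1a7, an aldehyde dehydrogenase close in sequence to Aldh1a1, rose by 0.94 (SE 0.09, adjusted p 2e-05). Me1 and Tkt rose by 0.57 and 0.56, while Pgd, of the oxidative pentose phosphate pathway, was at -0.05 and 0.02 at the 2 ages. Osgin1, an oxidative stress-induced growth inhibitor, went the other way: it read 7.44 and 7.35 in WT and 5.98 and 5.999 on the KO-labelled arrays and fell by 1.40 (SE 0.09, adjusted p 8.3e-07). Lpin1, a phosphatidate phosphatase, fell by 0.48, and the aldo-keto reductases Akr1b8 and Akr7a5 by 0.47 and 0.38. The ferritin chains stayed close to WT, with Fth1 at 0.06 and -0.01 and Ftl1 at 0.01 and -0.06.

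**Figure D4:**
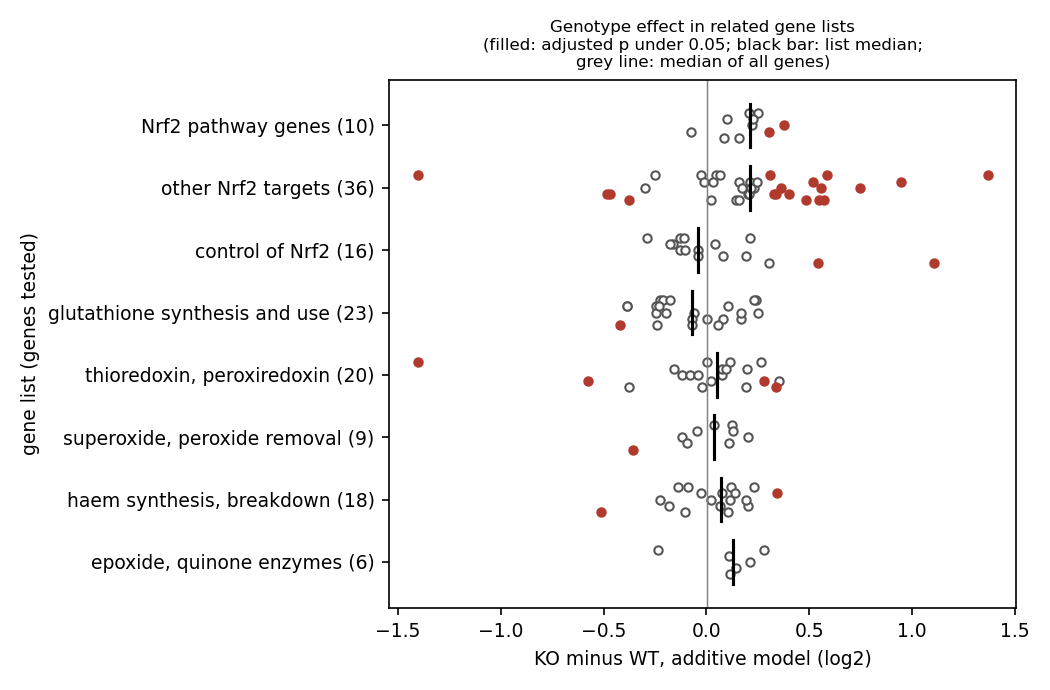
Additive genotype effect in log2 units for each tested gene of the 10 named genes and of 7 related lists, filled where the limma adjusted p is under 0.05, with a black bar at the list median and a grey line at the median of all genes. The other Nrf2 targets hold 14 filled points above 0 and 4 below, and the medians of both target lists lie at 0.21.

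The other redox lists are read against all genes tested, of which 6.81% rose and 4.26% fell. Of 23 genes of glutathione synthesis and use, 0 rose and 1 fell, with a median of -0.07. At an unadjusted p under 0.05 in limma, 1 was higher and 7 were lower in the KO-labelled arrays. The gene that fell was Mat1a, the liver methionine adenosyltransferase that supplies the sulphur route to cysteine, which read 11.96 and 12.03 in WT and 11.59 and 11.56 on the KO-labelled arrays and had an adjusted p of 0.0026 in limma. The highest of that list, Slc25a40 and Cbs, were at means of 0.25 and 0.24, and the low-signal Gpx8 was at -0.62 and -0.15; none of the 3 passed. Of 20 thioredoxin and peroxiredoxin genes, 2 rose and 2 fell. Txnip, which binds and inhibits thioredoxin, fell by 1.40, from 9.44 and 9.32 on the WT-labelled arrays to 8.01 and 7.94 on the KO-labelled ones. Sesn1, a sestrin, fell by 0.57 (adjusted p 0.0079 in limma). The peroxiredoxin Prdx1, also counted among the Nrf2 targets, rose by 0.34 with an adjusted p of 0.049, with 0.56 at 2 months and 0.11 at 8 months, and Txndc5 rose by 0.28. Msrb3, at 0.36 and 0.34, did not pass.

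Of 9 genes that remove superoxide and peroxides, 1 fell and 0 rose. At an unadjusted p under 0.05 in limma, 1 was lower and 1 higher, against 25% of all genes in either direction. The gene that fell was Ccs, the copper chaperone of superoxide dismutase, at -0.36 and -0.35 at the 2 ages (adjusted p 0.017 in limma), while Sod2 was at -0.15 and -0.08, Pon3 at 0.37 and 0.03 and Pon2 at 0.20 and 0.06. Of 18 genes of haem synthesis and breakdown, which surround Hmox1, 1 rose and 1 fell. Alas1, the first and rate-limiting enzyme of haem synthesis, rose by 0.34 and Cpox, coproporphyrinogen oxidase, fell by 0.51. Fech was at 0.33 and 0.14 and Blvra, a biliverdin reductase downstream of haem oxygenase, at -0.34 and -0.12. Of 6 tested epoxide and quinone enzymes 0 passed in limma, with 2 at an unadjusted p under 0.05, Cyb5r3 and Ephx2, against 25% of all genes. Cyb5r1 was at 0.07 and 0.49, Cyb5r3 at 0.18 and 0.23, the soluble epoxide hydrolase Ephx2 at -0.16 and -0.31, and Nqo2, the relative of Nqo1, at 0.30 and -0.08.

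The 5 genes whose profile over the 4 arrays was nearest to that of Srxn1, after each gene was centred on its own mean, were Ero1b, Snora52, Hcfc2, Frmd4b and Gid4. Their root mean square differences from Srxn1 ran from 0.0054 to 0.012 log2 units. Among the 10 genes Gclc was the nearest to Srxn1, at 0.035, with 75 genes nearer, and Gsr the farthest, at 0.23, with 6872 genes nearer. With 4 arrays many genes share a profile, and the ranking is a description.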

How the data were processed

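Liver RNA of 4 pools was measured on 4 arrays. The deposited log2 values are the authors' RMA output, and the submitters' processing notes name Affymetrix Expression Console 1.0v. That method subtracts background, forces the arrays to near-equal distributions and summarises probes, so differences of dim probe sets are compressed. The log base was not written in the table, and the sources used here name no genome build. The medians of the arrays ran from 3.52 to 3.58. An array has no read depth, and the number of arrays limits the precision.

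Probe sets with 1 symbol in the platform table (21789 of 35556) were averaged per gene after symbols were updated through RefSeq identifiers. Genes with a mean above the 40th percentile (3.34) were tested in R 4.3.3 with limma 3.58.1 (lmFit, then eBayes with a trend on intensity), which gave a prior of 11.3 degrees of freedom. The fit was tested on simulated data. Named genes are the 10 genes, Sirt6, the 2 highest and 2 lowest of each related list, every gene of the Nrf2 control list that passed, and the 5 profiles nearest to the gene with the largest effect; Gstm1, Gstm2, Gstm4, Me1, Tkt, Pgd, Fth1, Ftl1, Akr1b8, Akr7a5 and Txndc5 and the cell markers were named after their values were seen. The 10 genes and the lists were chosen with earlier results of these data known.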

Additional observations from a re-analysis of the deposited data

Results flagged for a closer look

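Among the 10 genes and the genes taken from the related lists by the naming rule, the genotype difference had opposite signs at the 2 ages in 3, with 1 array on each side. This difference between ages was not tested. Nqo1 was at 0.53 at 2 months and -0.090 at 8 months, Gclm at 0.23 and -0.057, and Nqo2 at 0.30 and -0.076. None of the 3 was 1.2-fold apart at each age, and 33.1% of all genes tested had opposite signs.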

How the results depend on the processing

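No paired analysis was possible because each group is 1 array, and leaving out an array leaves no residual degree of freedom. The 2 genes that rose became 0 when low genes were kept and 0 when eBayes used no trend, and were 2 under the other 7 alternatives. The genes at least 1.5-fold apart at 2 months became 1 under cyclic loess. When apart meant 1.2-fold, 4 genes counted at 2 months, 1 at 8 months and 2 for age in the KO-labelled arrays. Of the other Nrf2 targets, 8 rose without the trend and 2 fell without the filter. With the filter at the 60th percentile, which leaves out Nqo1, 1 gene had opposite signs at the 2 ages, against 2 in the main analysis and 3 under quantile normalization, median centring or cyclic loess. In WT, 7 genes were higher at 8 months, against 4 under renewed quantile normalization and 4 under cyclic loess. The age effect changed sign under renewed quantile normalization for Gclc (0.010) and Srxn1 (0.017), and under cyclic loess for Gclc (0.012), Srxn1 (0.019) and Gsr (0.0042). These effects are near 0 and their cause was not tested. The alternatives for the array that was highest, for signs at the 2 ages and by age and for the related lists were chosen after seeing the data.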
